A study of Mus musculus with 32 samples.

Results

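The genes described here are the 4 Notch receptors of the mouse, Notch1, Notch2, Notch3 and Notch4, together with Rbpj, the DNA-binding partner of the activated receptor, and Hes1, Nrarp, Dtx1 and Dtx4, which are known as targets or regulators of the pathway. They were chosen by symbol: 9 rows of a gene count table that holds 24421 symbols, and all 9 were among the 14154 genes that passed the filter on low counts. RNA-seq was run on 8 hematopoietic fractions sorted from the bone marrow of female C57BL/6 mice aged 10 weeks (Young) or 20 months (Aged), in 32 libraries, 2 for each combination of fraction and age. The aged animals were bought young and kept in the facility, and the marrow of each age was pooled and sorted in duplicate. The 2 libraries of a group, and the 8 fractions of an age, may therefore share their animals. The p-values measure only the spread between the 2 libraries of a group, which may be technical.

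The fractions were defined by surface antigens. Hematopoietic stem cells (HSCs) and the multipotent progenitors MPP1 to MPP4 were all lineage-negative, Sca-1+ and c-kit+. HSCs were CD34- CD150+ CD48- Flt3-, and MPP1 differed from them in being CD34+. MPP2, which the study calls megakaryocyte/erythroid-biased, was CD34+ CD150+ CD48+ Flt3-. The myeloid-biased MPP3 was CD150- CD48+ Flt3-, and the lymphoid-primed MPP4 was CD150- CD48+ Flt3+, both within CD34+ cells. Granulocyte-macrophage progenitors (GMPs) and megakaryocyte-erythrocyte progenitors (MEPs) were both c-kit+ without Sca-1, and were FcgR+ CD34+ and FcgR- CD34-, respectively. Common lymphoid progenitors (CLPs) were cells low for Sca-1 and c-kit that carried the IL-7 receptor alpha chain (IL-7+ in the labels), and the other fractions were taken from cells without that antigen.

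Notch is a receptor cut by proteases after it meets a Delta or Jagged ligand on a neighbouring cell. The freed intracellular part enters the nucleus, joins RBPJ and Mastermind coactivators, and turns on genes such as Hes1, whose product represses transcription, and Nrarp, whose product damps the signal in a feedback loop. In blood formation the pathway is best known for committing lymphoid progenitors to the T cell lineage through Notch1, and Notch2 is known for its role in marginal zone B cells.

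Promoter sequences were available for all members but Hes1 and Dtx4. Among those searched, only that of Rbpj held the DNA word that RBPJ itself is known to bind. The promoters of Rbpj and of Nrarp, which fell with age in every fraction, are shown. They are RefSeq sequences of 250 bases before to 50 bases after a transcription start in build GRCm38.p6, both from the plus strand, Nrarp at chr2:25180508-25180807 and Rbpj at chr5:53590096-53590395. Capitals mark TGGGAA, the core of the RBPJ motif, or its reverse complement TTCCCA, searched on both strands.
Nrarp: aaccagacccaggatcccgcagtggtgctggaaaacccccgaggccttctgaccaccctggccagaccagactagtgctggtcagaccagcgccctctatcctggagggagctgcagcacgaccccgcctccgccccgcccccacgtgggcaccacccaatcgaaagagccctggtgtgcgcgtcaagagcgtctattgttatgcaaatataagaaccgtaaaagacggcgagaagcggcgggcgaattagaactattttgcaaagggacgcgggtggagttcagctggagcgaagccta
Rbpj: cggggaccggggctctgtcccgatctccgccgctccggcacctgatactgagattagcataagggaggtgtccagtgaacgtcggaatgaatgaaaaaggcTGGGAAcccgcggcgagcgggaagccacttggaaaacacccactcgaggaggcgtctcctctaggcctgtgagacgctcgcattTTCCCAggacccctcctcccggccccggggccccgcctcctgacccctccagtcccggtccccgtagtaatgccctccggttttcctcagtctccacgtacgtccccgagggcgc
The Rbpj window held 2 matches, starting at -149 and -65 from the transcription start (a window of a second listed start, which overlaps it, held 1, at -205), and the promoter windows of Notch1, Notch2, Notch3, Notch4, Dtx1 and Nrarp held none. Of 32851 promoters of this length, 8397 (25.6%) held the word on either strand, so a match is a description and not a binding site. The promoter set used here held no sequence for Hes1 or Dtx4, so these 2 were not searched.

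In build GRCm38 (GENCODE M21), Notch1 (ENSMUSG00000026923) spans chr2:26457903-26516663, and Notch2 (ENSMUSG00000027878) spans chr3:98013527-98150361. Notch3 (ENSMUSG00000038146) and Notch4 (ENSMUSG00000015468) lie on chromosome 17, at 32120820-32166852 and 34564268-34588503. Rbpj (ENSMUSG00000039191) spans chr5:53466152-53657362, Hes1 (ENSMUSG00000022528) chr16:30064384-30067796, and Nrarp (ENSMUSG00000078202) chr2:25180758-25183339. Dtx1 (ENSMUSG00000029603) lies at chr5:120680202-120711927 and Dtx4 (ENSMUSG00000039982) at chr19:12466338-12501454. Notch1, Notch3, Notch4, Nrarp and Rbpj overlap annotated transcripts on the opposite strand, from which their reads cannot be told apart where counting ignores strand. Notch1 and Notch2 overlap annotated genes on their own strand, from which strand cannot separate their reads. Rbpj has the processed copies Rbpj-ps1 and Rbpj-ps3, with which it may share reads.

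Libraries held 11237384 to 17723245 counts (median 13489610), and 3 counts, the upper limit that a count of 0 allows, corresponded to 0.169 to 0.267 CPM across libraries, CPM being counts per megacount of a library. Among transcripts of the sorting antigens in Young libraries, Flt3 was highest in MPP4 (1127 CPM), Il7r in CLP (151 CPM), Fcgr3 in GMP (391 CPM) and Slamf1, which encodes CD150, in HSC (58.7 CPM). Cd34 transcript was lower in HSC (222 CPM) than in MPP1 (725 CPM) but not absent from the CD34- gate. Markers of other cells differed between ages in some fractions. In CLP the 9 B cell markers summed to 3003 to 3024 CPM in Young and 1591 to 1603 CPM in Aged, with 7 of 9 called lower. The 6 plasmacytoid dendritic cell markers summed to 2309 to 2358 CPM in Young CLP and 4238 to 5995 CPM in Aged CLP, with 5 of 6 called higher, and the 6 basophil and mast cell markers went from 1711 to 1751 CPM down to 8.28 to 15.7 CPM. Young MEP libraries carried 209 to 220 CPM of the B cell markers against 2.31 to 2.64 CPM in Aged MEP, where Cd79a and Ebf1 were at 0 counts, and Il7r was at 12.8 CPM in Young MEP and 0.295 CPM in Aged MEP. In bulk samples of this kind, fewer cells of a type and less RNA per cell cannot be told apart.

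Which receptors each fraction carried, in transcripts per length, depended mainly on Notch2 and Notch1. Notch2 was the most abundant receptor from HSC to MPP3 at both ages, and Notch1 came close to its level in MPP4 and exceeded it in CLP. Notch3 and Notch4 made up a small part everywhere. Levels between genes are given here as CPM per kilobase of merged exons.

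In Young HSC, Notch2 stood at 24.6 ± 3.43 CPM per kb (SD, n = 2), Notch1 at 7.19 ± 0.968, Notch4 at 0.240 ± 0.0488 and Notch3 at 0.162 ± 0.0422 CPM per kb. Notch2 therefore made up 76.4% of the summed receptor level per length in Young HSC, and 76.3% in Aged HSC. Its share was 73.4 to 83.6% in MPP1, MPP2 and MPP3 of both ages. In MPP4 the share of Notch1 was 46.6% in Young and 41.8% in Aged, and in CLP it was 64.0% and 64.2%. The smallest sum was that of GMP in Young (6.85 CPM per kb, of which Notch1 made up 39.3%) and that of MEP in Aged (8.24 CPM per kb, against 9.98 in Aged GMP). In MEP nearly all receptor transcript per length was Notch2, with a share of 96.4% in Young and 98.4% in Aged. The share of Notch3 in CLP was 1.48% in Young and 5.47% in Aged.

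**Figure D1:**
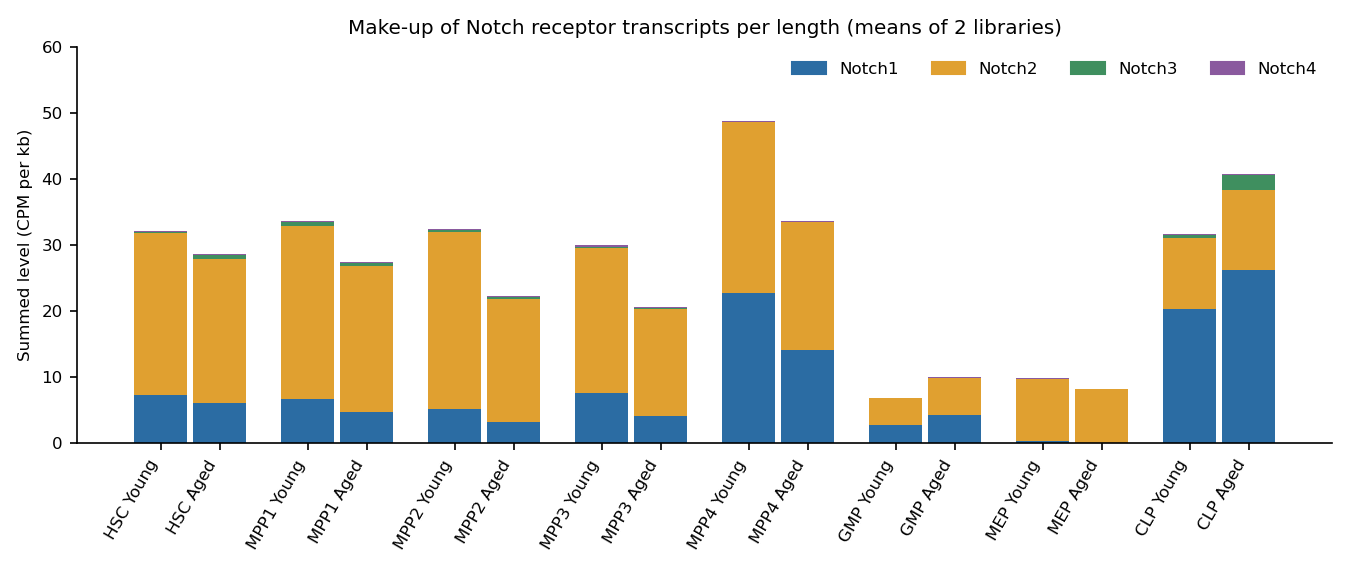
Stacked bars give the summed level of Notch1, Notch2, Notch3 and Notch4 in CPM per kb of exon (y axis) in each fraction and age (x axis), as means of 2 libraries. The sum is highest in Young MPP4 (48.9 CPM per kb) and lowest in Young GMP (6.85 CPM per kb), and Notch1 (blue) takes 64.0% in Young CLP.

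Within a gene, levels are compared in CPM. Notch1, the receptor of T cell commitment, was at 271 and 206 CPM in the 2 Young MPP4 libraries and at 215 and 211 CPM in Young CLP. These 2 fractions overlapped each other and stood apart from the rest. Young MPP3 (85.2 and 72.0 CPM), HSC (82.7 and 68.4 CPM) and MPP1 (70.6 and 69.0 CPM) formed an overlapping middle group. Young MPP2 (58.3 and 49.8 CPM), GMP (22.4 and 34.2 CPM) and MEP (0.978 and 4.54 CPM) followed in that order without overlap. In Aged mice CLP stood alone at the top with 271 and 278 CPM, above MPP4 with 157 and 138 CPM.

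Notch2 was level across the stem and multipotent fractions and low in the committed ones. From HSC to MPP4, Young means ran from 231 CPM (MPP3, the lowest) to 281 CPM (MPP2, the highest), and fractions next to each other in level overlapped, though MPP2 and MPP3 themselves did not. Young CLP was at 114 and 113 CPM, Young MEP at 91.8 and 107 CPM and Young GMP at 34.2 and 51.4 CPM. In Aged libraries the order of the 3 lowest fractions was the same, with CLP at 141 and 115 CPM, MEP at 76.0 and 94.2 CPM and GMP at 59.3 and 58.3 CPM.

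Notch3 was present at low counts in most fractions, highest among Young fractions in MPP1 (59 and 65 counts), and at 0 counts in all 8 GMP and MEP libraries. Notch4 never exceeded 27 counts in a library, and most neighbouring fractions overlapped. Its values are too close to the counting floor to order the fractions.

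Rbpj varied least among the members across fractions. Young means lay between 59.2 CPM in MEP and 114 CPM in MPP1, and MPP1, MPP4 and MPP3 overlapped at the top. GMP (69.2 and 64.3 CPM) and MEP (55.2 and 63.3 CPM) were lowest at both ages.

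Hes1 and Nrarp were both highest in HSC. In Young mice Hes1 was at 127 and 133 CPM in HSC, at 82.8 and 84.9 CPM in MPP1, and at 39.2 and 36.6 CPM in MPP4. MPP2 (32.1 and 31.1 CPM) overlapped MPP3 (26.4 and 32.7 CPM), followed by CLP (18.9 and 20.2 CPM) and MEP (6.60 and 5.77 CPM). No Hes1 read was counted in any of the 4 GMP libraries. Nrarp fell less steeply, from 42.7 and 43.7 CPM in Young HSC and 41.5 and 38.3 CPM in MPP1 to 27.8 and 25.4 CPM in MEP, which overlapped MPP2 (25.7 and 25.3 CPM). Young MPP3 (21.1 and 20.0 CPM), MPP4 (18.6 and 16.3 CPM), CLP (15.2 and 15.3 CPM) and GMP (2.99 and 1.75 CPM) came after.

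The Deltex genes encode E3 ubiquitin ligases that act on Notch, and they had another order. Dtx4 was highest in GMP (119 and 122 CPM in Young), the fraction in which Hes1 was at 0, followed by CLP (66.4 and 55.6 CPM) and MPP4 (23.6 and 20.3 CPM). It was lowest in HSC (2.40 and 2.32 CPM) and MEP (0.489 and 1.65 CPM). Dtx1 was above 13 counts only in CLP, where Young libraries held 91 and 110 counts. Elsewhere it was at 0 counts in both libraries of most groups, with 13 and 0 counts in Young MEP and 5 and 0 counts in Young MPP2 as the highest of the rest.

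Steps between fractions were tested with edgeR's quasi-likelihood test across all genes, and a gene was called at an adjusted p under 0.01 (Benjamini-Hochberg within each comparison). Counts of members leave out those at or under the floor in both groups. Hes1 fell at each step from HSC to the MPPs at both ages. Comparisons of MPP2, MPP3 and MPP4 share the MPP1 libraries.

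From HSC to MPP1, 1 of 8 members was called in Young (14.8% of all genes) and 1 of 8 in Aged (22.9% of all genes), Hes1 in both cases, with log2 fold changes of -0.65 (SE 0.114, adjusted p = 0.000272) and -1.67 (SE 0.121, adjusted p = 1.72e-09). From MPP1 to MPP2, 2 of 9 members were called in Young (6.82% of all genes) and 1 of 8 in Aged (5.55% of all genes). Hes1 was lower in MPP2 at both ages, by -1.37 (SE 0.119) and -2.12 (SE 0.139) on the log2 scale, and Dtx4 was higher by 1.25 (SE 0.257, adjusted p = 0.00200) in Young. From MPP1 to MPP3, 3 of 8 were called in Young (5.49% of all genes) and 3 of 8 in Aged (8.25% of all genes): Hes1 and Nrarp were lower and Dtx4 higher at both ages. Nrarp differed there by -0.89 (SE 0.154) in Young and -0.76 (SE 0.164) in Aged.

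From MPP1 to the lymphoid-primed MPP4, 5 of 8 members were called in Young (12.9% of all genes) and 5 of 8 in Aged (19.5% of all genes). Notch1 was 3.57-fold higher in Young MPP4 than in Young MPP1 (log2 1.84, SE 0.217, adjusted p = 1.53e-06) and 3.22-fold higher in Aged. Dtx4 was 5.97-fold higher in Young and 7.84-fold higher in Aged. Hes1, Nrarp and Notch3 were lower in MPP4 at both ages, Notch3 by -2.08 (SE 0.479) and -3.49 (SE 0.573) on the log2 scale. The receptor and the Deltex gene were thus higher in the fraction where Hes1 and Nrarp were lower than in MPP1.

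The steps to committed progenitors moved a large part of all genes. From MPP4 to CLP, 5 of 9 members were called in Young (41.8% of all genes) and 4 of 9 in Aged (40.5% of all genes). Notch3 and Dtx4 were higher in CLP at both ages, and Notch2 (-1.11, SE 0.183, adjusted p = 2.90e-05) and Hes1 (-0.80, SE 0.124, adjusted p = 1.92e-05) were lower in Young CLP. Dtx1 was called higher in Young CLP, with 91 and 110 counts against 0 and 3 in Young MPP4 (adjusted p = 0.00332). In Aged CLP its 19 and 18 counts stood against 0 and 0 in Aged MPP4, at least 6.02-fold higher when the 3 counts per library that a 0 allows are put in its place (adjusted p = 0.0184, not called). Notch1 and Nrarp were called higher in Aged CLP than in Aged MPP4, by 0.97 (SE 0.210, adjusted p = 0.000522) and 0.62 (SE 0.180, adjusted p = 0.00639), whereas in Young the differences were -0.01 (SE 0.207) and -0.04 (SE 0.161).

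From MPP3 to GMP, 7 of 8 members were called in Young (58.0% of all genes) and 5 of 8 in Aged (43.6% of all genes). Hes1, with 356 and 398 counts in Young MPP3 and 0 in GMP, was at least 173-fold lower in Young GMP, and at least 26.4-fold lower in Aged GMP. Nrarp was 6.62-fold lower in Young GMP and 7.69-fold lower in Aged GMP. Dtx4 rose 12.0-fold and 15.5-fold. Notch2 was lower by -2.05 (SE 0.190) in Young and -1.24 (SE 0.187) in Aged, and Notch3 by at least 10.3-fold and 5.38-fold. Rbpj (-0.33, SE 0.0842, adjusted p = 0.00172) and Notch1 (-1.08, SE 0.222, adjusted p = 0.000199) were called in Young, and their Aged values were -0.11 (SE 0.0847) and 0.35 (SE 0.223).

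From MPP2 to MEP, 6 of 9 members were called in Young (64.0% of all genes) and 7 of 8 in Aged (60.5% of all genes). Notch1, Notch2, Notch3, Rbpj, Hes1 and Dtx4 were lower in MEP at both ages. The fall of Notch1 was -4.16 (SE 0.298) in Young and -5.65 (SE 0.416) in Aged on the log2 scale. Nrarp was the exception: it was called higher in Aged MEP than in Aged MPP2 (0.51, SE 0.162, adjusted p = 0.00786), and its Young difference was 0.23 (SE 0.153, adjusted p = 0.179).

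With age, Hes1 and Nrarp fell, and few receptor differences passed the test. Nrarp was called lower in Aged in all 8 fractions, and Hes1 in all 7 fractions in which it was counted. Notch1 was lower in Aged MPP3 and MEP, Notch3 was higher in Aged CLP, and Dtx4 was higher in Aged MPP4. Notch2, Notch4, Rbpj and Dtx1 were called in no fraction. Over the 8 fractions this made 17 calls lower and 2 calls higher (17 and 5 with DESeq2, which also called Notch3 and Dtx4 higher in HSC and Dtx4 in GMP). Most of the 17 were calls of Nrarp and Hes1. Calls over all genes in the 8 fractions were 6305 lower and 7941 higher (10279 and 10127 with DESeq2).

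By fraction, 2 of 8 members were called in HSC (5.40% of all genes), 2 of 8 in MPP1 (6.80%), 2 of 9 in MPP2 (7.81%), 3 of 8 in MPP3 (13.9%) and 3 of 8 in MPP4 (16.6%). In the committed fractions the counts were 1 of 6 in GMP (18.9% of all genes), 3 of 8 in MEP (20.8%) and 3 of 9 in CLP (10.4%). The median log2 fold change of the members was between -0.81 (MEP) and 0.38 (GMP), and that of all genes between -0.04 and 0.02. Being lower in many fractions was uncommon: 21 of 14154 genes (0.148%) were called lower in at least 7 fractions, and 4 (0.0283%) in all 8. Those 4 genes, named after their values were seen, were Nrarp, Hmox1 (heme oxygenase 1), Neurl3 (an E3 ubiquitin ligase) and Fcna (ficolin A). Fractions of an age may share animals, so calls in several fractions are not separate observations of age.

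**Figure D2:**
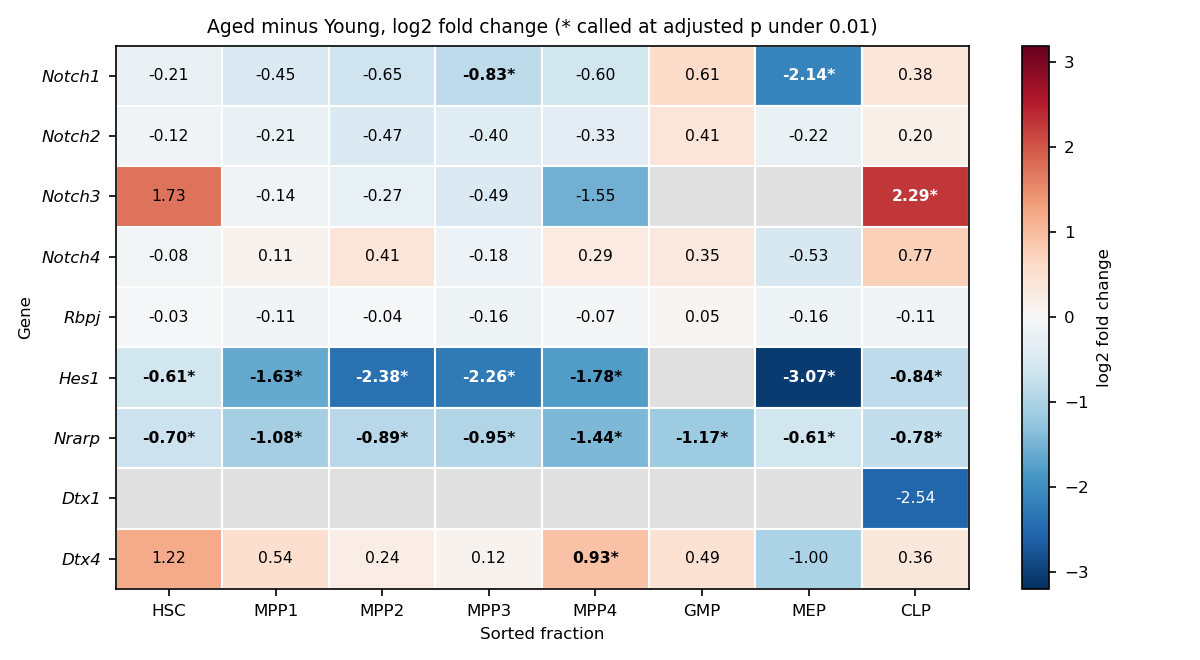
Each cell gives the log2 fold change of Aged over Young for 1 gene (rows) in 1 fraction (columns), with an asterisk where it was called at an adjusted p under 0.01. Grey cells had 1 or both groups at or under 3 counts in each library. The Nrarp row is negative throughout. The Hes1 row is negative from -0.61 to -3.07 outside GMP, where its cell is grey, and the Rbpj row stays between -0.16 and 0.05.

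Hes1 encodes a transcriptional repressor that keeps progenitors undifferentiated in many tissues. In HSC its level was 127 and 133 CPM in Young and 83.0 and 81.4 CPM in Aged, a log2 fold change of -0.61 (SE 0.114, adjusted p = 0.00141). In MPP1 it was 82.8 and 84.9 CPM against 26.1 and 26.6 CPM, a change of -1.63 (SE 0.120, adjusted p = 9.96e-08). Young and Aged levels were thus further apart in MPP1 than in HSC. The deepest relative fall among the multipotent fractions was in MPP2, from 32.1 and 31.1 CPM to 5.56 and 6.09 CPM (-2.38, SE 0.139, adjusted p = 3.90e-09). MPP3 went from 26.4 and 32.7 CPM to 5.45 and 6.45 CPM (-2.26, SE 0.140, adjusted p = 7.32e-09). In the lymphoid-primed MPP4 the values were 39.2 and 36.6 CPM in Young and 8.97 and 11.8 CPM in Aged (-1.78, SE 0.130, adjusted p = 2.07e-08). Aged libraries lay below Young ones in each of these fractions, an order that 25.2% (HSC) to 42.0% (MPP2) of all genes had, and the calls in MPP1 to MPP4 held in all 11 alternatives. CLP moved from 18.9 and 20.2 CPM to 11.4 and 10.2 CPM (-0.84, SE 0.133, adjusted p = 0.000180). Without Young HSC replicate 2 the HSC change was -0.61 with an adjusted p of 0.0150, and in fits on the 4 libraries of a fraction alone the adjusted p was 0.0187 in HSC and 0.0304 in CLP. MEP had few reads, 108 and 84 counts in Young and 9 and 8 counts in Aged (-3.07, SE 0.233, adjusted p = 7.05e-09). B cell markers were also lower in Aged MEP, and their part in this Hes1 value was not tested. With HSC set at 100%, MPP1 carried 64.7% of the Hes1 level of HSC in Young and 32.1% in Aged, and MPP2 24.4% and 7.09%.

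Nrarp encodes a small ankyrin-repeat protein made in response to Notch and acting against it. Its 2 libraries of each age were separated in all 8 fractions, a pattern shared by 57 of 14154 genes (0.403%). Its largest change was in MPP4, from 18.6 and 16.3 CPM in Young to 5.56 and 6.57 CPM in Aged (-1.44, SE 0.173, adjusted p = 3.29e-06). In HSC it went from 42.7 and 43.7 CPM to 23.8 and 27.7 CPM (-0.70, SE 0.152, adjusted p = 0.00431). The MPP1 values were 41.5 and 38.3 CPM against 18.7 and 17.9 CPM (-1.08, SE 0.155, adjusted p = 6.62e-05). The ratio of Aged to Young was thus closer to 1 in HSC than in MPP1, as it was for Hes1. Whether the age change differed between HSC and MPP1 was not tested for either gene. Against the mean of the MPPs, the Nrarp difference in HSC was not called by edgeR (0.39, SE 0.172, adjusted p = 0.176). MPP2 (25.7 and 25.3 to 12.4 and 14.2 CPM) and MPP3 (21.1 and 20.0 to 10.5 and 10.1 CPM) changed by -0.89 (SE 0.159) and -0.95 (SE 0.164). CLP changed from 15.2 and 15.3 CPM to 7.35 and 10.3 CPM (-0.78, SE 0.168, adjusted p = 0.00238). The smallest change was in MEP, from 27.8 and 25.4 CPM to 17.2 and 17.6 CPM (-0.61, SE 0.157, adjusted p = 0.00508). In GMP the counts were low, 52 and 31 in Young and 12 and 17 in Aged (-1.17, SE 0.268, adjusted p = 0.00225), and without Young GMP replicate 1 the value was -0.73 with an adjusted p of 0.139. Leaving out a library also ended the call, with no change of direction, in HSC (without Young replicate 1, Young replicate 2 or Aged replicate 1: -0.76, -0.71 and -0.60, adjusted p = 0.0178, 0.0290 and 0.0401), in MPP2 (without Young replicate 1 or Aged replicate 1: -0.88 and -0.78, adjusted p = 0.0101 and 0.0219) and in GMP without Aged replicate 1 (-0.94, adjusted p = 0.0533). The same held in MEP (without Young replicate 1, Aged replicate 1 or Aged replicate 2: -0.57, -0.63 and -0.66, adjusted p = 0.0270, 0.0294 and 0.0237) and in CLP (without Young replicate 1, Young replicate 2 or Aged replicate 1: -0.80, -0.77 and -0.58, adjusted p = 0.0161, 0.0191 and 0.0687). Fits on the 4 libraries of a fraction alone gave Nrarp adjusted p of 0.0360 in HSC, 0.133 in GMP, 0.0240 in MEP and 0.0521 in CLP. The promoter of Nrarp, printed above, held no TGGGAA word in its 300-base window.

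**Figure D3:**
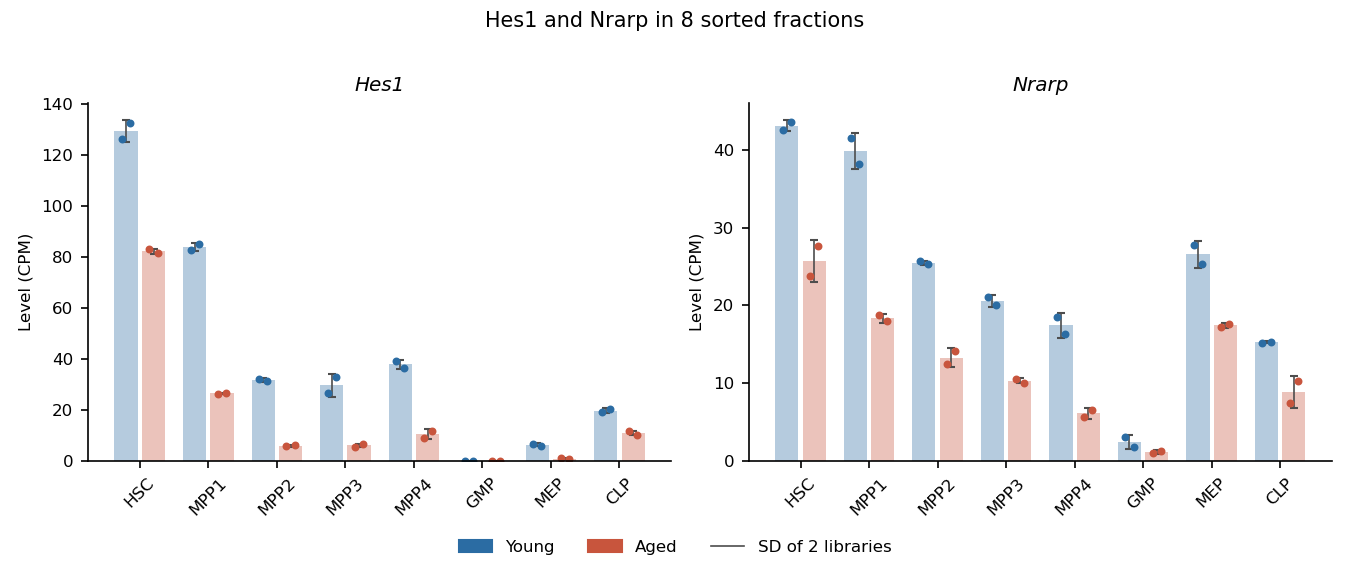
Levels of Hes1 and Nrarp in CPM (y axes) in 8 fractions (x axes) for Young (blue) and Aged (red); points are the 2 libraries, bars their mean and whiskers the SD. Aged points lie below Young points in every fraction except GMP for Hes1, where all 4 libraries are at 0.

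Of the receptors, Notch1 and Notch3 had called age changes. Notch1 was lower in Aged MPP3, at 85.2 and 72.0 CPM in Young and 43.6 and 42.1 CPM in Aged (-0.83, SE 0.220, adjusted p = 0.00869). The call lies near the threshold and was lost when any 1 MPP3 library was left out (-0.67, -0.91, -0.82 and -0.77 without Young replicate 1, Young replicate 2, Aged replicate 1 and Aged replicate 2, adjusted p = 0.103, 0.0237, 0.0508 and 0.0758), and with offsets for GC content and length (-0.57, adjusted p = 0.0232). In MEP, Notch1 was at 16 and 66 counts in Young and 5 and 9 counts in Aged (-2.14, SE 0.597, adjusted p = 0.00864). The 2 Young MEP libraries differed about as much as the ages, and without Young MEP replicate 2 the change was -0.75 with an adjusted p of 0.376, and without Aged MEP replicate 1 or replicate 2 it was -1.87 and -2.60 (adjusted p = 0.0740 and 0.0356). A fit on the 4 MEP libraries alone gave an adjusted p of 0.110. B cell markers stood at 209 to 220 CPM in both Young MEP libraries and at 2.31 to 2.64 CPM in Aged MEP, and their part in the Notch1 value was not tested. The other Notch1 changes were -0.21 (SE 0.217) in HSC, -0.45 (SE 0.219) in MPP1, -0.65 (SE 0.225) in MPP2 and -0.60 (SE 0.209) in MPP4, none of them called. Both Aged libraries lay below both Young libraries in each of these 4 fractions, as they did for 25.2% of all genes in HSC, 37.6% in MPP1, 42.0% in MPP2 and 41.0% in MPP4. Fits on the 4 libraries of a fraction alone called Notch1 in MPP1 and MPP2 (adjusted p = 0.000552 and 0.000639). The study, with its own DESeq2 comparisons at a q under 0.01, names Notch1 among genes that were lower in aged MPPs. It does not say there in which of the MPPs. In GMP (0.61, SE 0.225, adjusted p = 0.0461) and CLP (0.38, SE 0.207, adjusted p = 0.219) Aged libraries lay above Young ones, as for 34.3% and 27.5% of all genes.

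Notch2 changed by -0.47 (SE 0.179, adjusted p = 0.0832) in MPP2 at the lowest and by 0.41 (SE 0.190, adjusted p = 0.117) in GMP at the highest. None of its 8 differences was called (in a fit on the 4 MPP2 libraries alone the adjusted p was 0.000163), and its libraries overlapped between ages in 2 of 8 fractions. Aged libraries lay below Young ones in 4 fractions, an order that by fraction 24.5% to 42.0% of all genes had. They lay above in 2 fractions, as by fraction did 22.1% to 34.3% of all genes. With offsets for GC content and length the GMP value was -0.04.

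Notch3 rose in CLP, from 57 and 40 counts in Young to 332 and 176 counts in Aged. The fold change was 4.88 (log2 2.29, SE 0.417, adjusted p = 0.000876), and the 2 Aged libraries differed between themselves by 23.7 against 12.6 CPM. Without Aged CLP replicate 1 the log2 fold change was 1.72 with an adjusted p of 0.0282, and without Young CLP replicate 2 it was 2.04 (adjusted p = 0.0226). A fit on the 4 CLP libraries alone gave an adjusted p of 0.0281. Plasmacytoid dendritic cell markers were also higher in both Aged CLP libraries (4238 and 5995 CPM against 2309 to 2358 CPM), and the part of such cells in the Notch3 value was not tested. In HSC, Notch3 was at 12 and 22 counts in Young and 39 and 75 counts in Aged (1.73, SE 0.471, adjusted p = 0.0238), which did not pass the threshold (0.00527 with DESeq2). Notch4 was called nowhere, with changes from -0.53 (MEP) to 0.77 (CLP) and SEs from 0.476 to 0.572, and its GMP value turned from 0.35 to -0.13 with offsets for GC content and length.

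**Figure D4:**
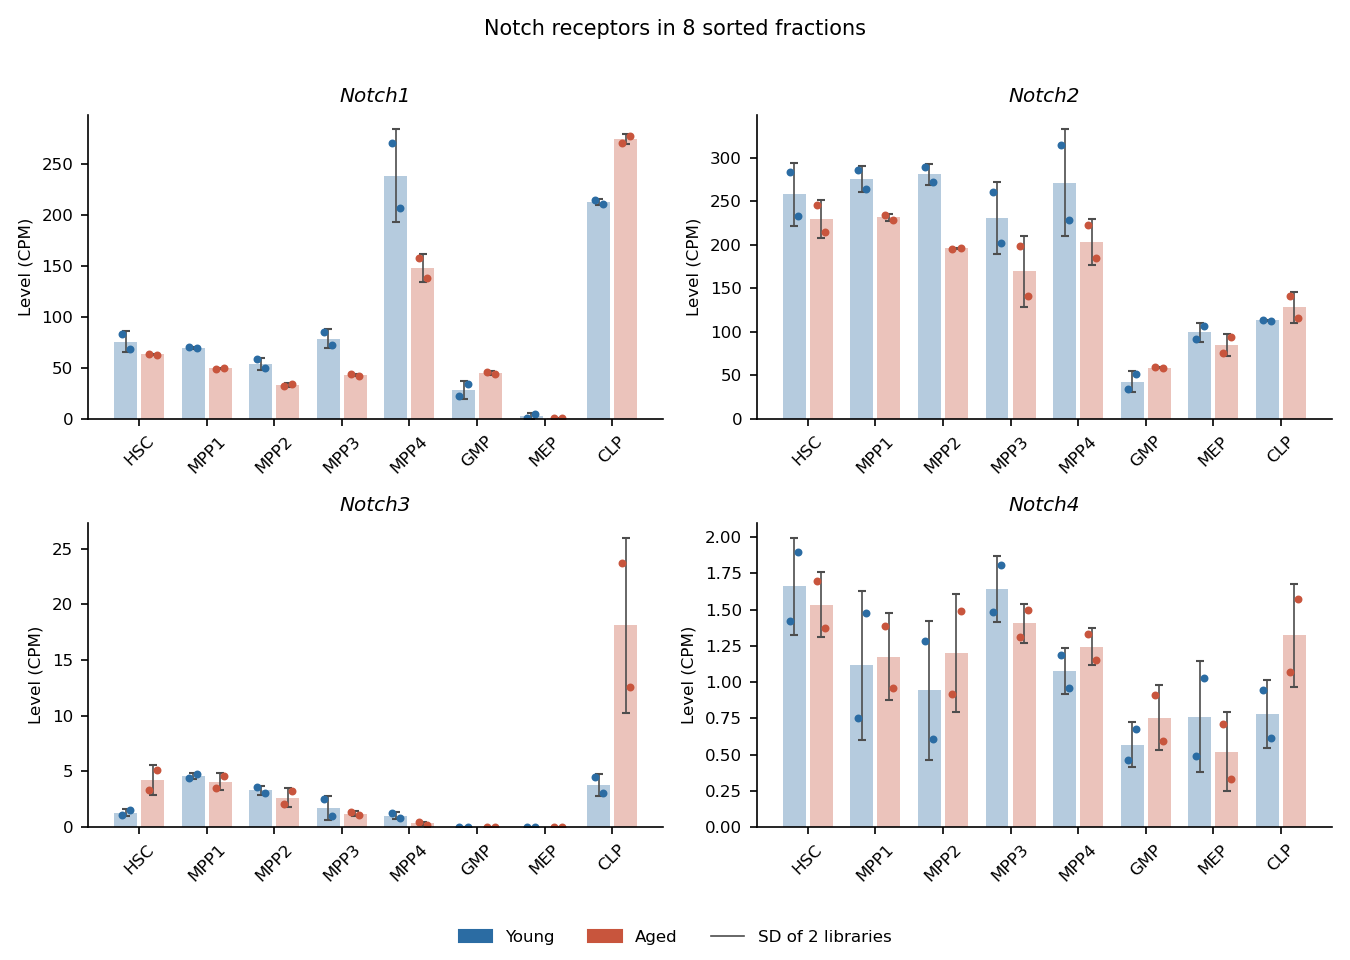
Levels of Notch1, Notch2, Notch3 and Notch4 in CPM (y axes, each with its own scale) in 8 fractions (x axes) for Young (blue) and Aged (red), with the 2 libraries as points, their mean as bars and the SD as whiskers. Notch1 peaks in MPP4 and CLP, Notch2 in HSC and the MPPs, and Notch3 in Aged CLP at 18.1 CPM; Notch4 stays below 2 CPM.

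Rbpj, the factor through which all 4 receptors act, had the narrowest range of age differences among the members. They ran from -0.16 in MPP3 (SE 0.0839, adjusted p = 0.186) to 0.05 in GMP (SE 0.0849, adjusted p = 0.718). In HSC the levels were 104 and 91.5 CPM in Young and 104 and 82.6 CPM in Aged, which overlap. The fold changes were between 0.895 and 1.04, with SEs from 0.0837 to 0.0868 on the log2 scale.

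Dtx4 rose in MPP4, from 23.6 and 20.3 CPM in Young to 41.5 and 37.5 CPM in Aged (0.93, SE 0.191, adjusted p = 0.000968). Without Young MPP4 replicate 2 or Aged MPP4 replicate 1 the change was 0.83 and 0.86 (adjusted p = 0.0169 and 0.0143). Its HSC values were 27 and 33 counts in Young and 61 and 79 counts in Aged, a 2.32-fold difference just short of the threshold (adjusted p = 0.0108; 8.52e-05 with DESeq2 and 0.00525 with offsets for GC content and length). Aged libraries lay above Young ones in 5 of 8 fractions, where by fraction 22.1% to 34.3% of all genes had this order. In GMP the levels were 184 and 166 CPM against 119 and 122 CPM (0.49, SE 0.175, adjusted p = 0.0410, and 0.00573 with DESeq2). Dtx1 in CLP was at 91 and 110 counts in Young and 19 and 18 counts in Aged. The libraries did not overlap, with Aged below Young as for 31.0% of all genes in CLP. The shared fit gave this gene a wide error (-2.54, SE 1.07, adjusted p = 0.130), and a fit on the 4 CLP libraries alone gave an adjusted p of 0.0103. Ms4a1, a B cell marker among the 3 genes closest to Dtx1 in pattern, was at 97.6 CPM in Young CLP and 8.36 CPM in Aged CLP.

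**Figure D5:**
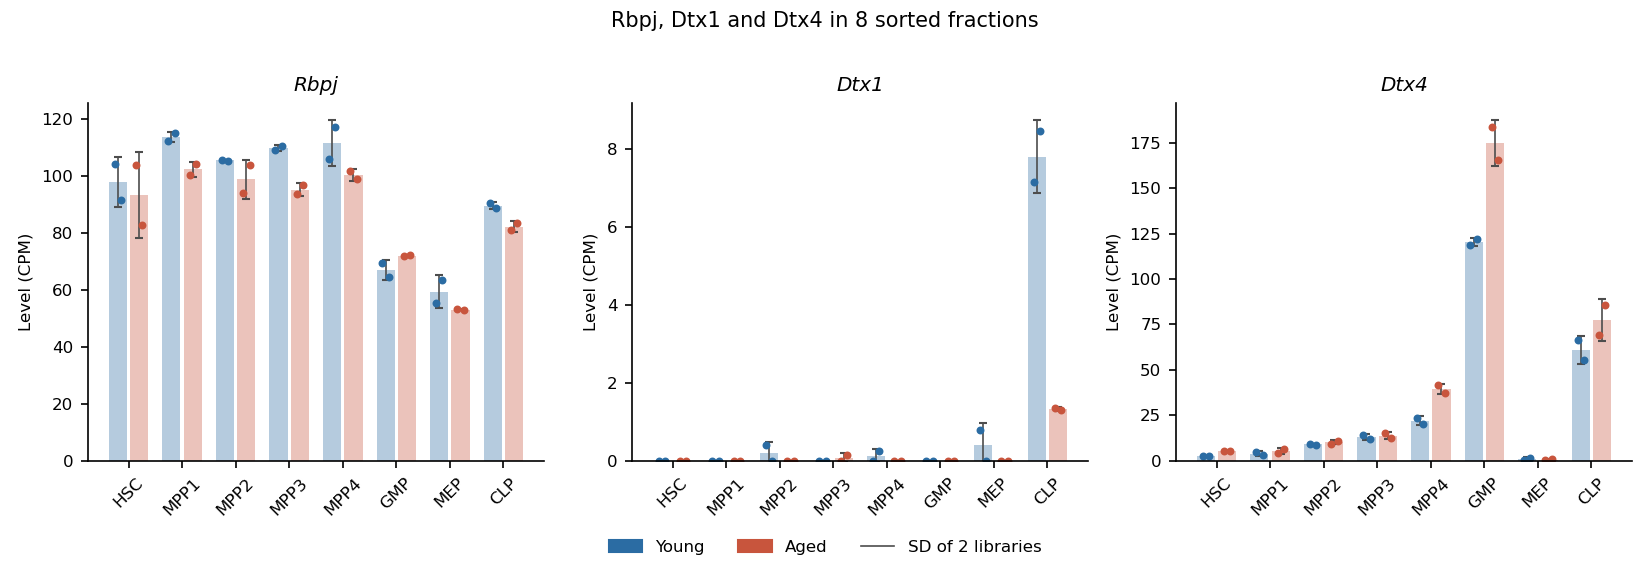
Levels of Rbpj, Dtx1 and Dtx4 in CPM (y axes, each with its own scale) in 8 fractions (x axes) for Young (blue) and Aged (red), with libraries as points, means as bars and SD as whiskers. Rbpj lies between 53.0 and 114 CPM in all groups, Dtx1 is above 1 CPM in CLP alone, and Dtx4 is highest in GMP.

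Whether a member changed with age differently in a committed or stem fraction than in the MPPs was tested as a difference between age effects, each fraction against the mean of MPP1 to MPP4. These 4 comparisons share the MPP libraries. In HSC, 1 of 8 members was called (3.01% of all genes): the age change of Hes1 was smaller in HSC (-0.61) than the mean over the MPPs (-2.01), a difference of 1.40 (SE 0.132, adjusted p = 2.37e-06). For Nrarp the same difference was 0.39 (SE 0.172, adjusted p = 0.176), which was not called. For CLP, 3 of 8 were called (22.6% of all genes), Hes1 (1.18, SE 0.149), Notch1 (1.02, SE 0.235) and Notch3 (2.90, SE 0.488), all less negative or more positive in CLP than in the MPPs. The Notch1 call was lost without Young CLP replicate 1, Young CLP replicate 2 or Aged CLP replicate 1 (1.00, 0.98 and 0.99, adjusted p = 0.0163, 0.0184 and 0.0129). For GMP, 2 of 6 were called (26.6% of all genes), Notch1 (1.24, SE 0.251) and Notch2 (0.76, SE 0.210), both with a positive change in GMP and a negative mean in the MPPs. With offsets for GC content and length these were 0.49 (adjusted p = 0.0706) and 0.14 (adjusted p = 0.551), and the Notch2 difference also lost its call when any 1 of 12 libraries was left out, with the lowest value without Young GMP replicate 1 (0.52, adjusted p = 0.0915). For MEP, 1 of 7 was called (24.8% of all genes): the age change of Hes1 was lower by -1.06 (SE 0.266, adjusted p = 0.00567), and the call was lost with DESeq2 (-1.10, adjusted p = 0.0130), with the offsets (-0.99, adjusted p = 0.0107) and without Young MEP replicate 1, Aged MEP replicate 1 or Aged MEP replicate 2 (-0.997, -1.26 and -0.979, adjusted p = 0.0199, 0.0221 and 0.0805).

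Hes1 and Nrarp fell in all 4 MPPs, and markers of mature cells differed between ages in these fractions to unequal extents. In MPP1 the 7 neutrophil markers summed to 80.2 to 107 CPM in Young and 92.9 to 111 CPM in Aged with none called by edgeR, and the 7 erythroid markers to 642 to 701 and 301 to 308 CPM, again with none called. The 7 macrophage markers in MPP1 went from 33.2 to 35.4 CPM down to 13.6 to 15.3 CPM, with 1 of 7 called lower. In MPP4 the neutrophil sums were 32.3 to 39.6 and 38.6 to 40.3 CPM with none called, whereas the 7 macrophage markers went from 50.3 to 57.5 CPM down to 10.2 to 11.5 CPM, with 5 of 7 called lower. The erythroid sum in MPP4 went from 568 to 700 CPM down to 167 to 180 CPM, with 1 of 7 called lower. Hes1 changed by -1.63 in MPP1 and by -1.78 in MPP4. In MPP2 the erythroid markers summed to 1369 to 1511 CPM in Young and 330 to 349 CPM in Aged, with 3 of 7 called lower, and the neutrophil markers to 748 to 795 and 283 to 289 CPM, with 6 of 7 called lower. In MPP3 the neutrophil sum went from 1229 to 1236 CPM down to 194 to 264 CPM. In GMP, where Nrarp fell, the erythroid sum went from 898 to 1018 CPM down to 38.2 to 101 CPM, with 4 of 7 called lower, and in CLP the macrophage sum went from 142 to 156 CPM down to 3.36 to 3.64 CPM, with 7 of 7 called lower. In HSC the neutrophil sum rose from 65.0 to 71.0 CPM in Young to 314 to 339 CPM in Aged, with 6 of 7 called higher. The macrophage sum in HSC went from 38.7 to 46.6 CPM down to 18.0 to 24.0 CPM, with 1 of 7 called lower. Hes1 and Nrarp were lower in Aged HSC. In MEP, where Hes1 and Nrarp fell, the 9 B cell markers went from 209 to 220 CPM down to 2.31 to 2.64 CPM, with 7 of 9 called lower. The macrophage sum in MEP went from 5.29 to 8.26 CPM down to 0 to 0.577 CPM, with 3 of 7 called lower. In GMP it was 110 to 127 CPM in Young and 87.8 to 116 CPM in Aged, which overlap, with 3 of 7 called lower. Among the marker lists, only that of macrophages had genes called lower in all 8 fractions. The part of such cells in the values of the members was not tested.

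The rest of the pathway was described through 65 further genes in 7 lists by role, 61 of which passed the filter on low counts. In HSC and MPP1 none of the 61 was called by edgeR (10 and 9 had an unadjusted p under 0.05, and DESeq2 called 2 and 3). In MPP2, 1 was higher and none lower, in MPP3 none higher and 4 lower, and in MPP4 3 higher and 3 lower. In GMP 8 were higher and 2 lower, in MEP 10 and 8, and in CLP 6 and 2. The calls over all genes were 5.40% (HSC), 6.80% (MPP1), 7.81% (MPP2), 13.9% (MPP3) and 16.6% (MPP4), then 18.9% (GMP), 20.8% (MEP) and 10.4% (CLP), so the share of the 61 was below that of all genes in HSC, the MPPs and GMP and above it in MEP and CLP. In fits on the 4 libraries of a fraction alone the total over fractions was 10 higher and 28 lower, against 28 and 19. The median log2 fold change of the 61 lay between -0.16 (MPP3) and 0.14 (GMP).

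Among the 5 ligands tested, 1 call was made: Dlk1, a non-canonical ligand, rose in MPP2 from 16 and 19 counts to 105 and 101 counts (2.43, SE 0.400, adjusted p = 0.000360). Jag2, the ligand with the highest level per length, was at 28.7 ± 1.67 CPM in Young HSC and 28.6 ± 1.17 CPM in Aged HSC (SD, n = 2). The sugar-transferring enzymes that tune the receptor's choice of ligand were called mainly in MEP, where Lfng (0.82, SE 0.149) and Rfng (0.98, SE 0.138) rose and Mfng, Pofut1 and Poglut1 fell. Mfng, the highest of them per length, fell there by -0.54 (SE 0.0982). Lfng fell in CLP by -0.68 (SE 0.147, adjusted p = 0.00225). These and the following genes, other than the highest in each list and Mib2, were named after their values were seen.

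Of the 10 proteases and gamma-secretase subunits, which release the intracellular part of the receptor, Ncstn and Aph1c rose in Aged CLP and Psen2 in Aged MEP. Psenen, the highest per length, was called in none of the 8 fractions. Of the 8 coactivators, Kat2a rose in MPP4 and MEP and Maml3, a Mastermind, in GMP (1.22, SE 0.208, adjusted p = 0.000150), and Snw1, the highest per length, was called in none. Among the corepressors that bind RBPJ in the absence of Notch, Spen, Ncor1, Ctbp1 and Tle3 rose in GMP and Spen, Ncor1 and Ctbp1 in MEP, with log2 fold changes from 0.37 to 0.94. Ncor1, a scaffold for histone deacetylases, went from 105 and 125 CPM in Young GMP to 210 and 209 CPM in Aged GMP. Hdac1, the highest of the list per length, was called in none of the 8 fractions.

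Among 12 genes of receptor trafficking and turnover, Mib2, an E3 ligase that acts on Notch ligands, rose in GMP (0.63, SE 0.162), MEP (0.80, SE 0.177) and CLP (0.71, SE 0.167) and fell in MPP4 (-0.69, SE 0.162). No other gene of the 65 was called one way in 3 or more fractions. Dtx3, another member of the Deltex family, fell in MPP3 (-0.61, SE 0.159) and MPP4 (-0.74, SE 0.158) and rose in GMP (0.66, SE 0.171) and MEP (1.06, SE 0.163). Dtx3l, the highest per length, rose in CLP (0.57, SE 0.112).

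Of 10 other known targets tested, 2 fell in MPP3, 1 rose and 1 fell in MPP4, and 3 fell in MEP. Hey1, a relative of Hes1, fell in MPP3 from 42 and 46 counts to 4 and 5 counts (-3.32, SE 0.745, adjusted p = 0.00313) and in MPP4 from 59 and 37 counts to 3 and 0 counts (adjusted p = 0.000506). Hes5 fell in MEP, from 37 and 34 counts to 0 and 3 counts (adjusted p = 9.03e-06). Tcf7, a T cell factor, fell in MPP3 (-2.01, SE 0.442) and MEP (-2.14, SE 0.440) and rose in MPP4 from 4 and 6 counts to 36 and 28 counts. Gata3, which acts in T cell development, fell in MEP (-2.06, SE 0.290). B cell markers were also lower in Aged MEP, and their part in the MEP values of Hes5, Tcf7 and Gata3 was not tested. Myc, the target with the highest level per length, was called in none of the 8 fractions.

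Across the 16 groups of fraction and age, likeness of pattern was measured as Pearson's r of mean log2 CPM, given as a description since groups share a fraction and a depth. Among the members, Notch2 and Hes1 were most alike (r = 0.91, n = 16 groups), followed by Hes1 and Nrarp (r = 0.85), and Nrarp and Dtx4 were most opposed (r = -0.77). Over tested genes whose mean reached 5 CPM, the closest to Hes1 were Fscn1, Ltb and Rxra (r = 0.97 each). Closest to Nrarp were Rchy1, Mbp and Ptk2 (r = 0.95 to 0.94), and closest to Dtx4 were Palm, Prss57 and Prss16 (r = 0.98 to 0.96). For the receptors the leading genes were Baiap2, Bmyc and Hrh2 for Notch1, Zfp512 and Ralgapa2 for Notch2, Serinc3, Setd7 and Prkca for Notch3, and B2m, Spint2 and Mylk for Notch4. Rbpj was closest to Homer3, Cep68 and Fam102a, and Dtx1 to Fcmr, Ms4a1 and Snx2.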

How the data were processed

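RNA-seq libraries of 8 sorted fractions at 2 ages (2 libraries per group) were made from amplified cDNA without molecular identifiers, so intervals of counts cover counting error only. The authors aligned reads to mm10 with TopHat2 (2.0.13) and Bowtie2 (2.1.0), counted them per gene with StringTie and deposited a table of raw counts; the submitters' notes also name DESeq2. Whether counting used strand is not given in the sources used here. A normalized table and 8 tables of the authors' own Aged against Young comparisons (fold changes and p-values) were not used. Of 24421 symbols, 23350 matched GENCODE M21 directly and 650 through an older symbol, and 27 had been turned into dates.

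Levels are counts over the library total (CPM), or CPM per kb of merged exons between genes. One fit of all 32 libraries (16 group means, TMM factors 0.807 to 1.11, filterByExpr, 14154 genes) was made with edgeR 4.0.16 (R 4.3.3), and SEs are the absolute log2 fold change over the square root of F. Genes were called at an adjusted p under 0.01. The edgeR script was tested on simulated data. DESeq2 1.42.0, other normalization, no filter, replicate blocks, GC and length offsets, other thresholds, 4-library fits and leaving out each library were tried as alternatives. Library totals ran from 11237384 to 17723245 counts. Duplicates differed by more than counting noise in every group (chi-square per degree of freedom 4.59 to 19.0), so no pair looked like 1 library deposited as 2, which does not show that they came from separate animals.

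The members and gene lists were chosen with earlier results of these data known. Text names all 9 members; of other pathway genes, those called the same way in at least 3 fractions and the highest per kb in each list; and the 3 genes most alike in pattern to each member. A few genes that these rules name are not reported here. Others are marked as named after their values were seen. Figures were drawn with matplotlib 3.10.9.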

Additional observations from a re-analysis of the deposited data

Results flagged for a closer look

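The change with age differed between fractions for 7 results, each tested as the age change in a fraction minus the mean age change over MPP1 to MPP4, and the 4 sets of differences share the MPP libraries. For Hes1 the difference was 1.40 in HSC (-0.61 against -2.01), 1.18 in CLP (-0.84 against -2.01) and -1.06 in MEP (-3.07 against -2.01), with edgeR adjusted p of 2.37e-06, 5.83e-06 and 0.00567. For Notch1 it was 1.24 in GMP (0.61 against -0.63) and 1.02 in CLP (0.38 against -0.63), with edgeR adjusted p of 0.000483 and 0.00187. Notch2 differed by 0.76 in GMP (0.41 against -0.35, edgeR adjusted p = 0.00686), and Notch3 by 2.90 in CLP (2.29 against -0.61, edgeR adjusted p = 0.000179). The Hes1 differences in HSC and CLP and the Notch3 difference in CLP were called in all 26 alternatives. Of the same number, Notch1 was called in 24 in GMP and 23 in CLP, Hes1 in MEP in 20 and Notch2 in GMP in 12 (0.14 with offsets for GC content and length).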

How the results depend on the processing

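The 6 counts of calls (19 members with age, 29 and 26 member calls between Young and between Aged fractions, 7 differences between age changes, 47 other pathway genes and 14246 calls over all genes in 8 comparisons) stayed within 1.5 times the main count with other size factors, DESeq2, no filter, offsets for GC content and length, and 4-library fits where these apply. At an adjusted p under 0.05 there were 11 differences, 80 other pathway genes and 24098 calls over all genes, and when a change of 1 or more on the log2 scale was also required there were 10 members with age, 11 pathway genes and 3565 calls over all genes. Leaving out each library gave 15 to 22 members with age, 26 to 31 and 23 to 28 member calls between fractions, 5 to 9 differences, 37 to 54 pathway genes and 12373 to 16336 calls over all genes.

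Young and Aged libraries share only replicate numbers (correlation of replicate differences from -0.13 to 0.17 over 8 fractions). With the replicate block, 18 members were called with age (Notch1 in MEP at an adjusted p of 0.0114), 29 and 27 between fractions, 7 differences, 47 pathway genes and 14477 over all genes; with offsets and the block, these were 19, 29, 27, 5, 51 and 14945.

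Direction changed for uncalled values. In GMP, offsets for GC content and length gave -0.043 for Notch2 and -0.13 for Notch4 (-0.046 and -0.13 with the block). Leaving out a library gave ranges that cross 0 for Rbpj in HSC, MPP2, MPP4 and GMP, for Notch3 in MPP1, MPP2 and MPP3, for Notch4 in HSC, MPP1, MPP2, MPP3 and MEP, and for Dtx4 in MPP3 and MEP; the cause was not tested. For Rbpj they were -0.20 to 0.083 (HSC), -0.093 to 0.048 (MPP2), -0.15 to 0.013 (MPP4), -0.026 to 0.11 (GMP). For Notch3 they were -0.31 to 0.064 (MPP1), -0.62 to 0.043 (MPP2), -0.96 to 0.38 (MPP3). For Notch4 they were -0.31 to 0.12 (HSC), -0.30 to 0.68 (MPP1), -0.035 to 1.03 (MPP2), -0.29 to 0.0073 (MPP3), -1.20 to 0.031 (MEP). For Dtx4 they were -0.019 to 0.30 (MPP3), -1.70 to 0.023 (MEP). Depth limits Notch4 (at most 27 counts in a library), Notch3 in GMP and MEP, Hes1 in GMP and Aged MEP, and Dtx1 outside CLP.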
